A study of Mus musculus with 2 samples.

Results

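This account covers 34 genes of cholesterol synthesis and sterol transport in RNA bound to tagged ribosomes of the mouse ventral striatum. The members are a named list, picked by gene symbol, and all 34 were found among the 32531 gene symbols of the count files. The list is not the whole pathway. Per the labels, the mice were adult, untreated controls of the Stard5-TRAP line JX5852 (Stard5-EGFP/Rpl10a), in which the ribosomal protein Rpl10a carries the green fluorescent protein EGFP. The Stard5 gene names the line, and the labels do not say which cells carry the tag. In translating ribosome affinity purification (TRAP), the tissue is homogenised and tagged polysomes are pulled down with antibodies against EGFP, here before RNA sequencing. The series holds 2 pulled-down libraries of 1 group, replicate 1 and replicate 2, and no second condition was analysed here. Values therefore describe levels and the spread between the libraries, and the labels do not say whether these came from separate animals, so that spread may be technical.

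Brain cholesterol is made within the brain, since lipoproteins of the blood do not cross the blood-brain barrier. Synthesis runs from acetyl-CoA over mevalonate and farnesyl diphosphate to squalene, which is closed to lanosterol and trimmed to cholesterol. The membrane-bound SREBP transcription factors switch these enzymes on when sterols are low, escorted by SCAP and held back by INSIG proteins, while oxysterols activate the liver X receptors, which raise efflux genes. In adult brain, astrocytes are regarded as a main source of cholesterol for neurons, and neurons clear excess as 24-hydroxycholesterol.

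The libraries held 25830282 and 29574781 reads in genes, in which levels are given as CPM, reads per 1000000 reads in genes. The 34 members took 0.121% of these reads in replicate 1, and 0.160% in replicate 2. All 13 spiny projection neuron markers, which define the output neurons of the striatum, were detected, with a median of 627 CPM. Glial RNA was also present, and the astrocyte and oligodendrocyte markers, but not the microglia markers, summed higher in replicate 2. All 12 astrocyte markers were detected, with none at 0, and their sum was 1297 CPM in replicate 1 against 3860 CPM in replicate 2, and the 11 oligodendrocyte markers summed to 767 and 1249 CPM. The 8 microglia markers, all detected, summed to 151 and 108 CPM, and of 8 endothelial and mural markers 5 were detected, for sums over all 8 of 37.1 and 50.7 CPM. The 13 spiny neuron markers summed to 13598 and 10352 CPM, and Stard5 itself stood at 166 and 54.9 CPM. In these bulk libraries, fewer cells of a type, less RNA per cell and a different yield of the pull-down cannot be told apart. No library of the tissue before the pull-down was analysed here, so the levels cannot be assigned to the tagged cells alone.

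Promoter sequences are shown for 6 members on which the levels below turn, with the letters of chosen motifs marked. Each is the 200 bases before the annotated start, from RefSeq on GRCm38.p6, written 5′ to 3′ along the gene. Capitals mark every match, on either strand, to TCACNCCAC (the core of the sterol regulatory element), CCAAT (the box of nuclear factor Y), CACGTG (a palindromic E-box) and to TGACCG and TAACC with 4 bases between them (a liver X receptor repeat). The last of these motifs was added after the values and the Abca1 window had been seen. Its match in Abca1 was therefore fixed in advance. The windows lie at chr13:119690151-119690350 (plus strand), chr5:114444069-114444268 (plus strand), chr15:82147069-82147268 (plus strand), chr11:60210472-60210671 (minus strand), chr4:53159896-53160095 (minus strand) and chr19:11965644-11965843 (plus strand). Srebf1 has 3 windows in the table, and the one with most matches is shown. The windows of Mvk, Srebf2 and Osbp hold matches to CCAAT only, and to none of the other motifs.
Hmgcs1: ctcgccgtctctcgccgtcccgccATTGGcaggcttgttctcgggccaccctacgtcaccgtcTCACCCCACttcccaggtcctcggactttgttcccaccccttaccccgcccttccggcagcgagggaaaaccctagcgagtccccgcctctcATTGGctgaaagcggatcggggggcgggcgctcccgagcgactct
Mvk: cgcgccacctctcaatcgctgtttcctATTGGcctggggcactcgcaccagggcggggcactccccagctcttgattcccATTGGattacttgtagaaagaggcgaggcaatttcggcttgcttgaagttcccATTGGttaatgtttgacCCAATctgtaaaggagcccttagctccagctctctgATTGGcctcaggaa
Srebf2: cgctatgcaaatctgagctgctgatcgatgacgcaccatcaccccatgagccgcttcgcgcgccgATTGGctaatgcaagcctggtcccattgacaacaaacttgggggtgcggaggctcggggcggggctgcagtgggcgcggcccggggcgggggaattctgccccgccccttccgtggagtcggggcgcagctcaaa
Srebf1: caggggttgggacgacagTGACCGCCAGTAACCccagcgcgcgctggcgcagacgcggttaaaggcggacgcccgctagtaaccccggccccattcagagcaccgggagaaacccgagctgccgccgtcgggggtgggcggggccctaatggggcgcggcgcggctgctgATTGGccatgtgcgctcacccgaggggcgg
Abca1: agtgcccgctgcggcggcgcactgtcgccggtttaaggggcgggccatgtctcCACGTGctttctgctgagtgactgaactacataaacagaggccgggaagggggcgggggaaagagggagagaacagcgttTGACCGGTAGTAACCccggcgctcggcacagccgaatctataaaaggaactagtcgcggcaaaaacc
Osbp: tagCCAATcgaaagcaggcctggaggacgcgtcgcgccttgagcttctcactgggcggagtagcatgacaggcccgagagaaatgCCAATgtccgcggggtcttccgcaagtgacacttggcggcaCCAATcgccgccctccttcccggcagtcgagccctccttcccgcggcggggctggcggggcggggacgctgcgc

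The 250 bases before the start were searched for the 28 members with a window in the RefSeq table. CCAAT or its reverse complement was present in 23 of these 28 genes (82.1%), against 37.5% of all 27025 genes of the table and 40.8% of the 9091 detected genes with a window. Among the synthesis enzymes it was present in 15 of 16, all but Acat2, and among the other members in 8 of 12. The exact letters of the sterol element core were found in 1 member, Hmgcs1, and in 1.22% of all genes. The E-box was found in 6 members, Abca1, Dhcr7, Hsd17b7, Insig1, Sc5d and Scap, and in 6.86% of all genes. The exact letters of the liver X receptor repeat occurred in 4 genes of the whole table: Abca1, Srebf1, the fatty acid synthase gene Fasn and Prrg4. These are matches of letters, with no measurement of binding in this series, and the motifs do not overlap one another in the windows shown.

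All 34 members reached the detection limit of 1 CPM in each library. Their mean levels ran from 1.44 CPM (Tm7sf2) to 309.7 CPM (Lrp1), with a median of 29.2 CPM against 23.1 CPM over the 12374 detected genes. Of the members, 26 reached 10 CPM in both libraries and 1, Lrp1, reached 100 CPM in both. Per kilobase of merged exon, the scale used to compare genes, the median was 4.77 CPM against 5.31 CPM over all detected genes with a length, and 15 of 34 members lay above the median detected gene. The order by this scale was led by Acat2 at 21.3 ± 6.32 CPM per kilobase (SD, n = 2), Hmgcs1 at 21.1 ± 4.44 and Fdft1 at 18.8 ± 2.61. It ended with Lbr at 0.980 ± 0.0401, Mvd at 0.872 ± 0.438 and Tm7sf2 at 0.327 ± 0.0268. Of the 33 neighbouring pairs in this order, 31 had ranges over the libraries that overlapped, so only the steps from Osbp to Abcg1 and from Mvd to Tm7sf2 exceeded the spread. Across the 34 genes the log2 levels per kilobase of the libraries had a Pearson correlation of 0.901 and a Spearman correlation of 0.892, a description over genes that share their library and length.

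**Figure D1:**
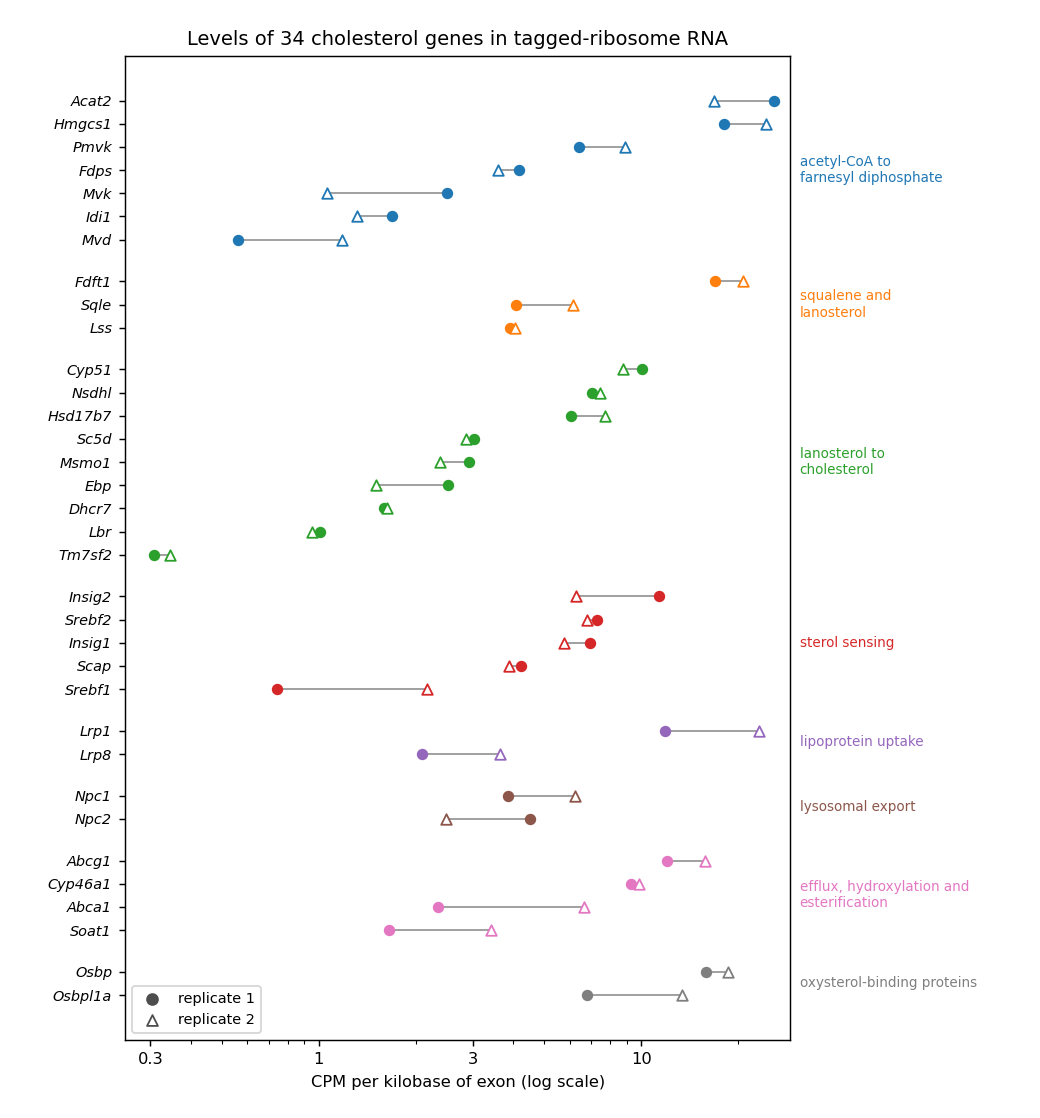
Level of each of the 34 genes in CPM per kilobase of merged exon (log axis), with a filled circle for replicate 1 and an open triangle for replicate 2, grouped by role. By the mean of the libraries Acat2, Hmgcs1 and Fdft1 stand highest and Tm7sf2 lowest, while in replicate 2 Lrp1 is second after Hmgcs1, and the widest gaps between the libraries are those of Srebf1 and Abca1.

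The enzymes that build farnesyl diphosphate ran from 0.872 to 21.3 CPM per kilobase in their means. Acat2, which joins acetyl-CoA units in the cytosol, had 65.6 CPM in replicate 1 but 42.9 CPM in replicate 2. Hmgcs1, which makes HMG-CoA, was at 82.7 and 111.5 CPM, for a mean of 97.1 ± 20.4 CPM (SD, n = 2). Both stood above every other gene of this group in each library, by CPM and per kilobase. The kinases of later steps, Mvk and Pmvk, were lower: Mvk at 6.66 and 2.84 CPM and Pmvk at 11.0 and 15.2 CPM. Mvd, which decarboxylates the product, was at 1.05 and 2.20 CPM, from 27 and 65 reads. The exact Poisson 95% intervals of Mvd, 0.689 to 1.52 and 1.70 to 2.80 CPM, did not overlap. The isomerase gene Idi1 was at 5.92 and 4.60 CPM, and Fdps, which forms farnesyl diphosphate, at 17.5 and 15.1 CPM. Per kilobase, Hmgcs1 (21.1 CPM) thus lay well above Mvk (1.78 CPM) and Mvd (0.872 CPM), beyond the range of either library. Reads of some of these genes may be lost or misplaced. Of the 50-base words of the longest transcript, 45.9% in Acat2 also occur in Acat3 or Tcp1, 30.5% in Idi1 and 11.7% in Fdps occur in other genes that include processed pseudogenes, and Mvk shares 0.858%. Hmgcs1 shares 13.6% with an antisense gene. In Fdps, 26.7% of exon bases overlap the protein-coding gene Gm43738 on the same strand.

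The enzymes at the branch into sterols were all above 20 CPM. Fdft1, squalene synthase and the first step committed to sterols, was at 71.6 and 87.2 CPM. Sqle, the epoxidase, followed at 22.7 and 33.9 CPM, and Lss, which closes the ring to lanosterol, at 42.2 and 43.9 CPM. Per kilobase, Fdft1 (18.8 ± 2.61 CPM) exceeded Sqle (5.11 ± 1.44) and Lss (3.99 ± 0.111) in both libraries, with no overlap. In Fdft1, 18.3% of exon bases overlap Ctsb, which lies on the opposite strand, and 30.7% of its 50-base words occur in Ctsb or a processed pseudogene. The strand setting of the counts is not given in the sources used here.

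Among the 9 enzymes from lanosterol to cholesterol, Cyp51, the lanosterol demethylase, had the highest mean, at 44.4 and 38.8 CPM. Hsd17b7 and Nsdhl, which act in demethylation at carbon C4 of the sterol, were at 30.8 and 39.4 CPM and at 20.1 and 21.2 CPM. Msmo1, the oxidase of that complex, was lower, at 18.0 and 14.6 CPM. The remaining enzymes differed little between the libraries, apart from Ebp. Sc5d, the sterol C5-desaturase, was at 14.8 and 13.9 CPM, Dhcr7, the last step of one route to cholesterol, at 9.29 and 9.43 CPM, and Ebp, the sterol isomerase, at 5.81 and 3.48 CPM. The reduction of the C14 double bond can be done by 2 proteins, Tm7sf2 and the lamin B receptor Lbr, and per kilobase these were the lowest of the group. Lbr was at 4.80 and 4.53 CPM and Tm7sf2 at 1.36 and 1.52 CPM. Per kilobase, Lbr exceeded Tm7sf2 in both libraries, at 0.980 ± 0.0401 against 0.327 ± 0.0268 CPM. In Tm7sf2, 12.1% of exon bases overlap Vps51 on the same strand. In Lbr, 10.7% overlap Dnah14 on the opposite strand or Gm26004 on the same strand. Reads there may be lost or misplaced.

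In the sterol-sensing machinery, Srebf2, whose product mainly drives cholesterol genes, stood above Srebf1, whose product mainly drives fatty acid genes. Srebf2 had 52.3 CPM in replicate 1 against 48.9 CPM in replicate 2. Srebf1 was at 4.18 and 12.2 CPM, with exact Poisson 95% intervals of 3.43 to 5.05 and 11.0 to 13.5 CPM. The ratio of Srebf2 to Srebf1 per kilobase was 9.80 in replicate 1 and 3.14 in replicate 2, so Srebf2 led in both, by unequal amounts. Scap, the escort that carries SREBPs to the Golgi, was at 31.5 and 28.9 CPM. The retention genes Insig1 and Insig2 were at 21.5 and 17.8 CPM and at 39.4 and 21.7 CPM. Per kilobase, Insig1 reached 0.612 and 0.919 of the Insig2 level, below it in both libraries. The files hold 1 count per gene, so the starts of Srebf1 cannot be separated.

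For uptake, Lrp1, a large lipoprotein receptor, was the most abundant member by CPM, at 209.4 in replicate 1 and 410.1 in replicate 2. Lrp8, the receptor of lipoproteins and reelin, was at 22.0 and 38.2 CPM. Their ratio per kilobase was nearly the same in the libraries, at 5.66 and 6.36. For lysosomal export, in which the soluble NPC2 hands cholesterol to the membrane protein NPC1, the partners differed in opposite directions. Npc1 was at 43.6 and 70.5 CPM and Npc2 at 24.6 and 13.5 CPM. The Npc1 to Npc2 ratio per kilobase was therefore 0.851 in replicate 1 and 2.52 in replicate 2, so that which of them led depended on the library. This crossing holds for merged exon length: without length the ratios were 1.77 and 5.24, and by the longest transcript their mean was 2.01.

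Of the genes that dispose of sterol, Abcg1, an efflux transporter, led at 87.5 and 114.6 CPM. Abca1, the transporter that loads lipid-poor apolipoproteins, had 24.3 CPM in replicate 1 against 68.8 CPM in replicate 2. Abcg1 was higher in both, with an Abca1 to Abcg1 ratio per kilobase of 0.195 and 0.423. Cyp46a1, the cholesterol 24-hydroxylase of neurons, hardly differed, at 30.5 and 32.3 CPM, or 9.54 ± 0.385 CPM per kilobase (SD, n = 2). Soat1, which esterifies cholesterol for storage, was at 16.1 and 33.5 CPM. The oxysterol-binding proteins, which exchange lipids at membrane contacts, were both abundant. Osbp was at 71.4 and 83.2 CPM and Osbpl1a at 53.0 and 104.2 CPM. Per kilobase of merged exon Osbp exceeded Osbpl1a 2.34-fold and 1.39-fold, but scaled by the longest transcript the mean ratio was 0.946, so their order depends on the length used.

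**Figure D2:**
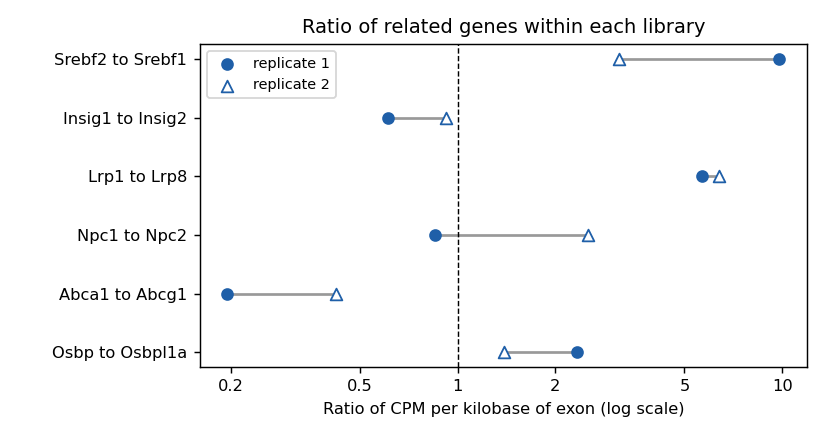
Ratio of 6 pairs of related genes within each library, from CPM per kilobase of merged exon (log axis), with a circle for replicate 1, a triangle for replicate 2 and a dashed line at equal levels. The Npc1 to Npc2 ratio crosses the line, from 0.851 to 2.52, and the other 5 pairs stay on 1 side of it.

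The libraries were then compared gene by gene, which asks how far each level repeated. An exact binomial test on reads was run over all 12374 detected genes with Benjamini-Hochberg adjustment, and a gene was called where the ratio was 2-fold or more and the adjusted p was below 0.05. This test compares 2 libraries of the same group with counting error only, not conditions. Of the 34 members, 6 (17.6%) were called, against 17.3% of all detected genes. Of these, 5 were higher in replicate 2 (background 9.52%) and 1 in replicate 1 (background 7.76%). The total is thus near the background, and the members' median log2 ratio, replicate 2 over replicate 1, was 0.11 against -0.0025 over all genes.

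The called genes higher in replicate 2 were Srebf1, Abca1, Mvd, Soat1 and Osbpl1a. Srebf1 had a log2 ratio of 1.57, a 2.96-fold difference, with an adjusted p of 3.6e-26 in the exact binomial test. Abca1 had a log2 ratio of 1.53, a 2.89-fold difference. These genes, with the highest ratios of the 34, are also the 2 members whose promoter windows hold the liver X receptor repeat. That motif was added, and this coincidence noted, after the values and the Abca1 window had been seen, so it tests nothing. Fasn, which holds the repeat too, was at 127 and 210 CPM with a log2 ratio of 0.75. Prrg4, the remaining gene with the repeat, was lower in replicate 2, at 2.44 and 0.676 CPM. Mvd and Soat1 had log2 ratios of 1.08 each. Osbpl1a lay just past the 2-fold limit, and Lrp1 just short of it at a log2 ratio of 0.996. In GENCODE M21 on GRCm38, Srebf1 (ENSMUSG00000020538.15) lies on chromosome 11 from 60199089 to 60222581 and Abca1 (ENSMUSG00000015243.4) on chromosome 4 from 53030787 to 53159895, both on the minus strand. The called gene higher in replicate 1 was Mvk, at a log2 ratio of -1.20 and an adjusted p of 2.3e-10 in the same exact test. Mvk (ENSMUSG00000041939.14) is a plus-strand gene of chromosome 5, between positions 114444269 and 114460591.

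**Figure D3:**
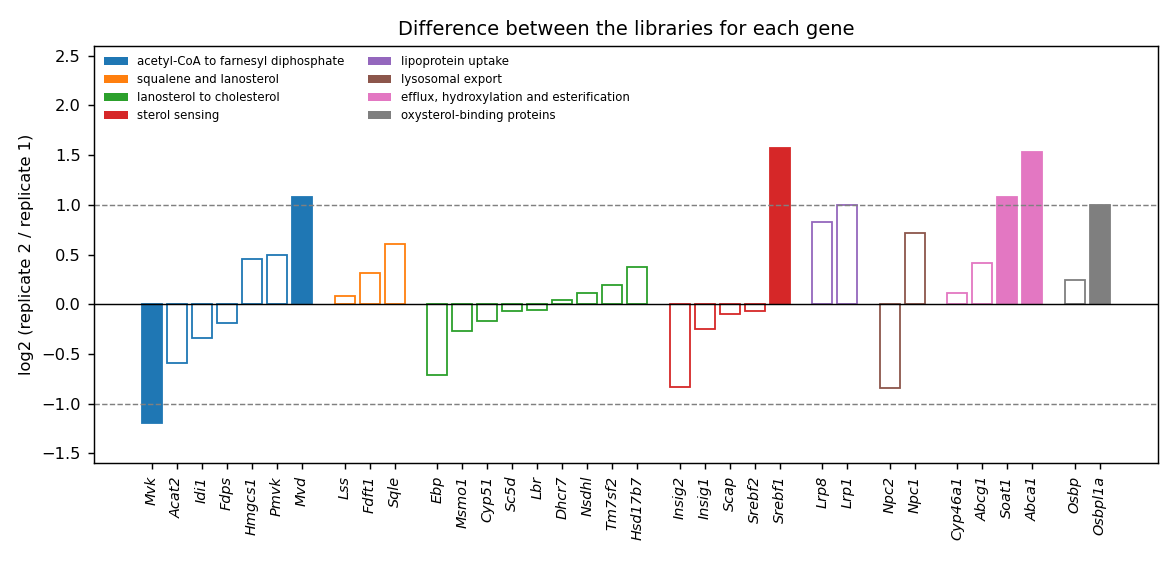
The log2 ratio of replicate 2 over replicate 1 for each gene, with library sizes scaled by TMM, coloured by role; filled bars passed the exact binomial test with a 2-fold ratio, and dashed lines mark that ratio. Most enzymes of the lanosterol-to-cholesterol group lie near 0, and the 5 filled bars above 0 are Mvd, Srebf1, Soat1, Abca1 and Osbpl1a.

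The synthesis enzymes and the other members differed in how their sums compared between the libraries. The 19 synthesis enzymes summed to 476 CPM in replicate 1 against 506 CPM in replicate 2, their median log2 ratio was 0.05, and 2 of them (10.5%) were called. The 15 other members summed to 731 and 1099 CPM, with a median of 0.42 and 4 (26.7%) called, all as higher in replicate 2. Lrp1 alone went from 209.4 to 410.1 CPM, and 5 of the 15 ratios lay below 0. The 5 sterol-sensing genes among them summed to 149 and 130 CPM, with 4 ratios below 0. The background over all detected genes was 17.3% called, 9.52% as higher in replicate 2. None of the 9 enzymes from lanosterol to cholesterol was called, with log2 ratios from -0.71 (Ebp) to 0.38 (Hsd17b7). All 4 genes of efflux, hydroxylation and esterification had a ratio above 0. The difference between these groups was not tested.

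Ratios between the libraries also differed by exon length and between the markers of different cell types. Over all tested genes, the median log2 ratio went from -0.38 in the shortest of 5 equal classes of exon length (median 2.03 kilobases) to 0.23 in the longest (10.6 kilobases). The 6 members in the longest class had a median of 0.91 and the 5 in the shortest class one of -0.59. With this length trend removed, 3 members remained called, Srebf1, Abca1 and Mvd, while Soat1 (0.89), Osbpl1a (0.88) and Mvk (-0.98) fell short of the 2-fold limit. Over all 11465 genes with a length, 14.8% were then called. The trend was removed from the log2 ratio only, and the adjusted p stayed that of the binomial test without this removal. Of the 12 astrocyte markers, 8 were called, all with the higher level in replicate 2, and the median log2 ratio was 1.58. Of the 11 oligodendrocyte markers, 4 were called as higher in replicate 2, and none of the 13 spiny neuron markers was called, with a median of -0.37. The 8 microglia markers had a median of -0.44, with 6 ratios below 0 and 1 marker called, as higher in replicate 1. The part of glial RNA in the members' ratios was not tested.

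**Figure D4:**
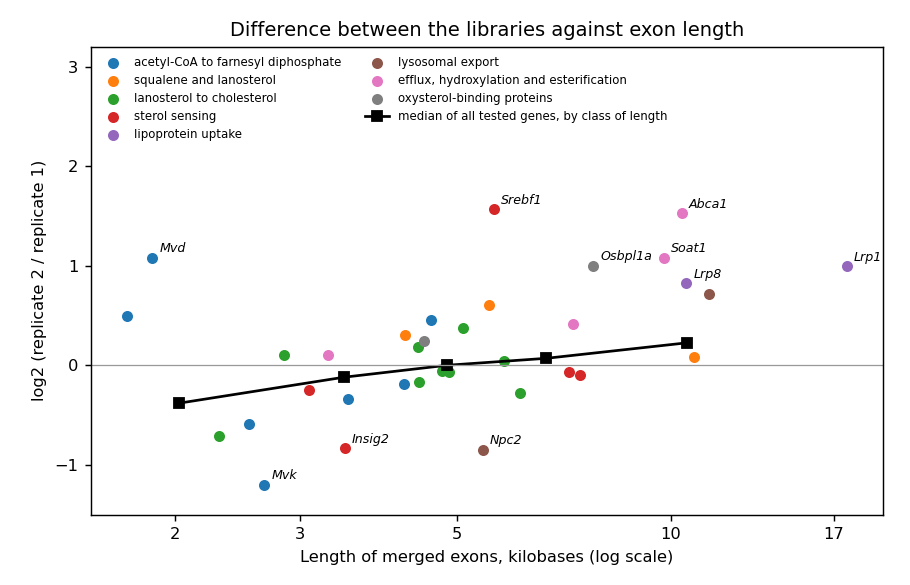
The log2 ratio of replicate 2 over replicate 1 for each member against the length of its merged exons in kilobases (log axis), with black squares for the median of all tested genes in each of 5 length classes. The squares climb from -0.38 to 0.23, and Srebf1, Abca1 and Mvd lie well above them while Mvk, Insig2 and Npc2 lie well below.

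Other genes of sterol and lipid metabolism gave a wider view, from a list of 60 symbols that were all found and of which 54 were detected. Of the 54, 7 (13.0%) were called, against 17.3% of all detected genes, 6 towards replicate 2 (background 9.52%) and 1 towards replicate 1 (background 7.76%). In the non-sterol branch, which makes prenyl groups, dolichol and ubiquinone, none of 8 detected genes was called. Ggps1, which makes geranylgeranyl diphosphate, was at 111.4 and 91.6 CPM, Nus1, a subunit of the dolichol enzyme, at 90.7 and 99.4 CPM, and Pdss1 was lowest at 0.813 and 3.14 CPM. None of the 9 genes that process SREBPs or degrade pathway proteins was called. Of these, Ufd1l was highest at 122 and 133 CPM, and Mylip, the ligase of lipoprotein receptors, was lowest at 9.37 and 4.73 CPM.

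The fatty acid genes driven by SREBPs all had a ratio above 0, and 4 of 10 were called as higher in replicate 2, against the background of 9.52%. Scd2, the main stearoyl-CoA desaturase gene of brain, was highest at 396 and 790.2 CPM, with a log2 ratio of 1.02. Acly, which supplies cytosolic acetyl-CoA, was at 163 and 194.1 CPM. Fads2, the lowest, had a log2 ratio of 1.52, Scd1 of 1.28 and Acaca, acetyl-CoA carboxylase, of 1.25. As stated above, astrocyte and oligodendrocyte markers were higher in the same library, and the median ratio over all tested genes rose with exon length. The part of either in the ratios of the fatty acid genes was not tested.

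Liver X receptor genes were scarce. Nr1h2 was at 1.63 and 2.33 CPM and Nr1h3 had no read in replicate 1 and was at 0.135 CPM in replicate 2, near the floor of 3 reads (0.116 and 0.101 CPM). Among the nuclear receptors listed, Rora stood highest at 75.5 and 115.7 CPM and Rxra next at 29.3 and 24.4 CPM. The oxysterol-binding relatives included Osbpl8, which works at contacts of the endoplasmic reticulum with the plasma membrane, at 405.9 and 427.4 CPM. Osbpl6 followed at 157 and 168 CPM, Osbpl10 was lowest at 7.70 and 5.78 CPM, and Osbpl11, at a log2 ratio of -1.28, was called towards replicate 1. Of the other transport genes, Gramd1b, which moves cholesterol from the plasma membrane, was at 134.8 and 117.3 CPM and Vldlr at 112 and 103 CPM. Gramd1c was lowest, at 0 and 0.778 CPM, and the lysosomal lipase gene Lipa (log2 ratio 1.09) and Abca7 (1.04) were called as higher in replicate 2. Of the sterol hydroxylases other than Cyp46a1, Cyp7b1 was detected at 7.90 and 6.56 CPM, Cyp39a1 stood at 0 and 0.981 CPM, and Ch25h had 0 reads in both libraries, which allows up to 0.116 and 0.101 CPM by the floor of 3 reads and up to 0.143 and 0.125 CPM by the exact Poisson 95% interval.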

How the data were processed

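For each library the authors deposited raw counts, 1 per gene symbol. STAR 2.0.0e and HTSeq were used with mm10, per the submitters' processing notes; annotation and strand setting: not given in the sources used here. Left out were 6 summary lines without a gene, among them reads outside exons (22.8% and 31.0% of all counted reads in replicates 1 and 2) and reads with several alignments (27.9% and 13.6%). Counts were converted to CPM over named genes. Detection meant 1 CPM or more in both libraries, or 25.8 and 29.6 reads. Intervals are exact Poisson at 95%, and these and the floor of 3 reads cover counting error only.

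Merged exon lengths and overlaps came from GENCODE M21 (GRCm38), by symbol; 11465 of 12374 detected genes had a length. Shared 50-base words were counted between the longest transcript of each member and transcripts of other genes. Promoter windows came from RefSeq (GRCm38.p6), matched for 28 of 34 members.

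Library sizes were scaled by the TMM method of edgeR 4.0.16, and log2 ratios have 0.5 reads added. The 2-sided exact binomial test was computed with scipy 1.17.1. It was tested on simulated Poisson counts without a length trend, the error it assumes, so that run checks the code only. DESeq2 1.42.0 size factors, other filters and fold limits, and removal of the length trend were alternatives. Removal of the trend changed the log2 ratios and not the adjusted p. All members are named; of other lists, the 2 highest, the lowest and called genes, except that Prrg4, Fasn and Nr1h2 were picked after values were seen. A gene that this rule takes is not reported here. Members and lists were chosen with earlier results of these data known.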

Additional observations from a re-analysis of the deposited data

How the results depend on the processing

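No paired analysis was possible because the series holds 1 group. All 34 members were detected under every alternative except the 5 CPM minimum, which left 27. Of the 34 log2 ratios, Lss and Dhcr7 changed sign with the length trend removed, to -0.14 and -0.0084, from values near 0. The number of members called, 6 at 2-fold, was 14 at 1.5-fold (9 higher in replicate 2 and 5 in replicate 1), 23 with no fold required (15 and 8) and 3 with the length trend removed (3 and 0). With a mean of 5 CPM or more, 0 members were called as higher in replicate 1, since Mvk was no longer tested, against 700 of 10343 genes. Over all genes, 2138 (17.3%) were called at 2-fold and 4732 (38.2%) at 1.5-fold, 2390 higher in replicate 2 and 2342 in replicate 1. With no fold 9761 (78.9%) were called (4833 and 4928), and with the length trend removed 1693 (14.8%, 1050 and 643). When every gene with a read was tested, 5781 (30.5%) were called (3838 and 1943). With library totals, Osbpl1a fell to 0.98. DESeq2 size factors changed no member's call. Without length, the mean ratios of Lrp1 to Lrp8, Npc1 to Npc2 and Osbp to Osbpl1a were 10.1, 3.50 and 1.07. With the longest transcript, those of Lrp1 to Lrp8 and Osbp to Osbpl1a were 4.51 and 0.946. Leaving out 1 library gave Npc1 to Npc2 ratios from 0.851 to 2.52. With 2 libraries, each lies within 1 SD of the mean by construction, so leaving one out is no check of a level. No ratio between the libraries can be had without one of them.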
